A study of Homo sapiens with 6 samples.

Results

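The genes described here encode the subunits of potassium, calcium and sodium channels of the KCN, CACN and SCN families. They were measured in SK-N-BE(2), a MYCN-amplified line from a human neuroblastoma. Members were the protein-coding genes whose symbol starts with KCN, starts with CACN, or reads SCN, a number and A or B, among the 64252 genes of the count table; antisense genes, pseudogenes and the SCNN1 genes were left out. There were 136 members: 96 potassium, 26 calcium and 14 sodium channel genes. RNA was sequenced in bulk from 6 libraries in 3 groups of 2. The groups were cells with a short hairpin RNA against BCAT1 (shBCAT1#1, called hairpin 1), cells with another hairpin against the same gene (shBCAT1#2, hairpin 2), and cells with a control hairpin (shControl, also labelled shNC). All 3 groups share the parent line and the introduction of a hairpin, and no group without a hairpin was analysed here. The design tests what lower BCAT1, which transaminates branched-chain amino acids in the cytosol, does to the transcriptome of this line. The labels do not say whether the libraries of a group came from separate cultures, so p-values measure only how far these libraries spread, and that spread may be technical.

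Voltage-gated channels open when the membrane depolarises: sodium channels carry the fast upstroke of the action potential, calcium channels couple it to secretion and gene expression, and potassium channels return the membrane to rest. A channel is built from a pore-forming alpha subunit, or several of them, and auxiliary subunits that set its traffic, gating and inactivation. Neuroblastoma arises from sympathetic precursor cells, and cultured lines can carry sodium, calcium and potassium currents, the KCNH2 (hERG) current among them. Transcript levels, which are all that was measured here, do not give currents.

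BCAT1 averaged 55.5 CPM with hairpin 1, 113 CPM with hairpin 2 and 467 CPM with the control hairpin, so its level followed the labels (CPM is the count rate per library, counts per 1000000 after TMM scaling). Total counts lay between 32333416 and 39321388 per library, and 1 count equalled 0.0254 to 0.0309 CPM before that scaling. All 8 adrenergic neuroblastoma markers looked at, from PHOX2A to CHGA, averaged over 1 CPM. Their summed level was 1254 to 1331 CPM with hairpin 1, 1090 to 1091 CPM with hairpin 2 and 1518 to 1541 CPM with the control hairpin. Of the markers of other cell types, 4 of 5 fibroblast genes were also at that level, COL1A1, PDGFRA, DCN and LUM, with a summed level of 397 to 411 CPM with hairpin 1, 575 to 576 CPM with hairpin 2 and 573 to 579.8 CPM with the control hairpin; COL1A2 was near 0. Of the epithelial list, 3 of 4 genes were over 1 CPM, with a summed level of 11.9 to 13.3 CPM with hairpin 1, 19.7 to 20.1 CPM with hairpin 2 and 9.60 to 11.6 CPM with the control hairpin. The leukocyte, endothelial and muscle lists each had 1 gene over 1 CPM, CD68 at 27.4, VWF at 6.61 and ACTN2 at 1.80 CPM on average, and the glial list had 0. CD3E, MYOD1, MYH2 and TNNT2 had no count in any library. On the average of both hairpins against control, 1 adrenergic marker was called higher and 4 lower, and 3 epithelial markers were called higher. CD68 and 4 fibroblast markers were called lower, COL1A1, COL1A2, DCN and LUM, while PDGFRA did not pass. Of these, COL1A2 was near 0, and COL1A1 overlapped control with hairpin 2. The part of these markers in the channel results was not tested. In bulk RNA, fewer cells of a type and less RNA per cell cannot be told apart.

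Channel transcripts were a small share of the RNA, and a few genes made up most of it. The members held 0.192% and 0.193% of all counts with hairpin 1, 0.157% and 0.158% with hairpin 2, and 0.148% and 0.144% with the control hairpin. In these shares, taken before TMM scaling, all 4 knockdown libraries lay above both control libraries. An exact permutation test of both hairpins against control, two-sided over 15 arrangements, gave p = 0.133, the smallest it allows. The TMM factors were 1.035 and 1.0347 with hairpin 2 and 0.962 and 0.960 with the control hairpin. Scaling by them narrows the gap between those groups, so the separation and its test hold for unscaled shares only. KCNH2, SCN9A, KCNG1 and CACNA2D1 together held 71.4% of the counts of all members. Of the 136 members, 40 reached 1 CPM before TMM scaling in all 6 libraries, 15 in some but not all of them, and 46 to 50 in any single library. A further 18 members had no count in any library, and 40 had counts too few to be tested, at most 48 over the 6 libraries together. The test covered the other 78 members. Of these, 58 passed the filter level of 0.259 CPM in both libraries of every group, 6 did so in 2 groups and 11 in 1 group only. The other 3 passed it in both libraries of no group. A difference among those 11 was in part required for entry. The 6 entered whatever the level of the remaining group, so a difference among them is not free of the filter either.

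Per kilobase of exon, KCNG1 and KCNH2 stood at the top. KCNG1, an electrically silent subunit that modifies other voltage-gated potassium channels, averaged 72.2 ± 2.5 CPM per kb with hairpin 1, 41.1 ± 1 with hairpin 2 and 62.7 ± 4.9 with the control hairpin (SD, n = 2 each). KCNH2, the pore of the hERG repolarising current, averaged 78.2 ± 1.9, 58.5 ± 0.17 and 60.4 ± 2.5 CPM per kb in the same 3 groups (SD, n = 2 each). With the control hairpin these levels lay within each other's spread, so their order is not set. SCN9A, the sodium channel of sensory and sympathetic neurons, came next at 20.5 ± 1.1 CPM per kb with the control hairpin, followed by CACNA2D1, the calcium channel α2δ subunit that binds gabapentin, at 10.3 ± 0.26 (SD, n = 2 each). Of the other members, KCNH8, KCNK13 and KCNQ5 averaged 5.13 ± 0.34, 4.74 ± 0.52 and 4.7 ± 0.12 CPM per kb with the control hairpin and were not separated by their spread. Among the other calcium genes, CACNA2D3 averaged 4.05 ± 0.28, CACNB3 2.21 ± 0.028 and CACNB1 1.71 ± 0.051 CPM per kb with the control hairpin (SD, n = 2 each). The next sodium genes, SCN3A and SCN8A, averaged 0.788 ± 0.035 and 0.662 ± 0.023 CPM per kb there, far below SCN9A. Exon length is the union of annotated exons, which understates the level of genes with many unused exons.

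**Figure D1:**
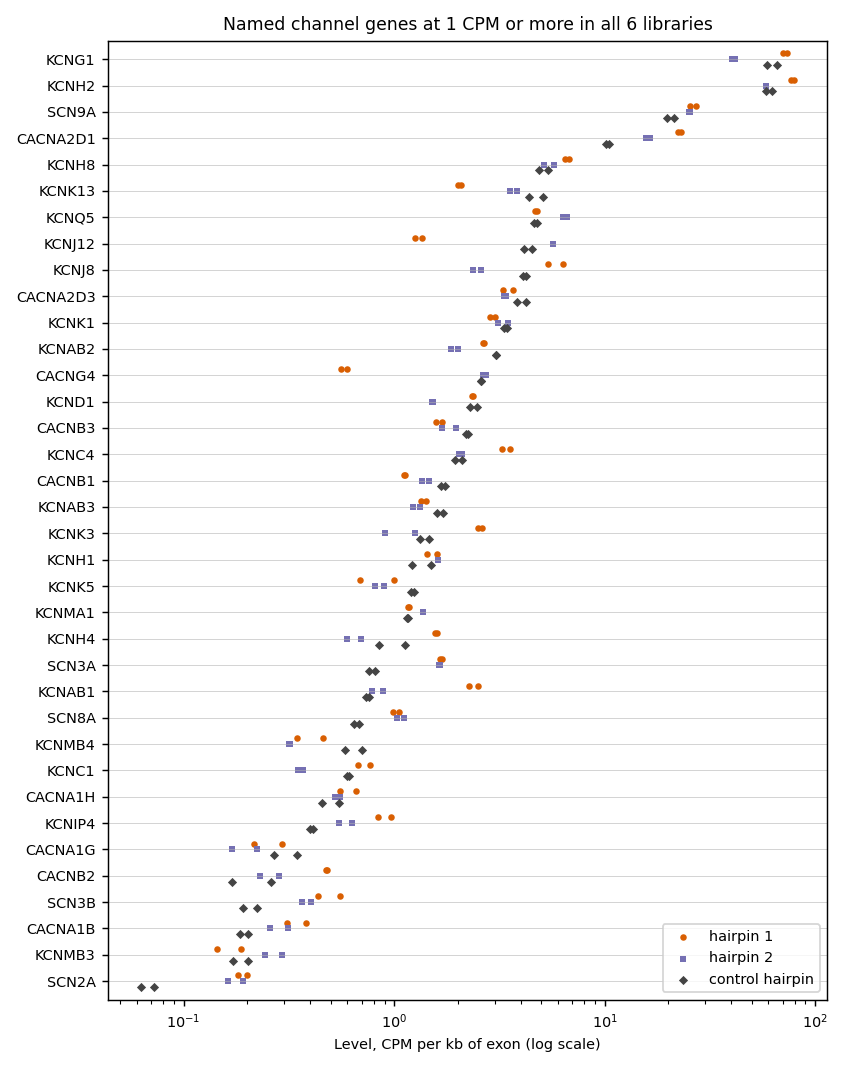
Level of 36 of the 40 members at 1 CPM or more in all 6 libraries, in CPM per kilobase of exon on a log axis; each symbol is a library (circles hairpin 1, squares hairpin 2, diamonds control hairpin) and genes are ordered by their control level. KCNG1, KCNH2, SCN9A and CACNA2D1 stand apart at the top, and CACNG4, KCNJ12 and KCNAB1 show hairpin 1 libraries away from those of both other groups.

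With both hairpins averaged against the control hairpin, a call that does not require each hairpin to pass, 19 of the 78 tested members rose and 14 fell in edgeR's quasi-likelihood test at an adjusted p under 0.05. That is 42.3% of the members tested, and over all 18734 genes tested the same call was made for 50.0%, with 23.6% higher and 26.4% lower. The share of channel genes called was thus no higher than that of genes in general. The median log2 change was -0.08 over the tested members and -0.01 over all genes tested. The families differed in their counts: 5 sodium genes rose and 0 fell of 10 tested (no further sodium gene was lower at an unadjusted p under 0.05 in edgeR, and DESeq2 also called 5 higher and 0 lower), 3 calcium genes rose and 5 fell of 15, and 11 potassium genes rose and 9 fell of 53. Their median log2 changes were 0.63, -0.36 and -0.09 in that order. For 15 members all 4 knockdown libraries lay above both control libraries and for 12 below. This separation was not counted over all genes tested, so these numbers have no background to be read against. Without the first control library 15 members rose and 7 fell, and with DESeq2 16 rose and 9 fell. Of the 33 calls, 16 held under each of the other alternatives tried apart from a demand for a fold above 1.5. Holding in this way did not require each hairpin to pass. KCNAB1, CACNB1, CACNB3 and CACNG4 are among the 16 but were not called with hairpin 2. KCNJ12, a fall among the 16, was called higher with hairpin 2 (log2 change 0.39, adjusted p = 0.0043). These 16 and the 19 rises include KCNK9, which had no control count and entered the test through the knockdown groups alone.

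**Figure D2:**
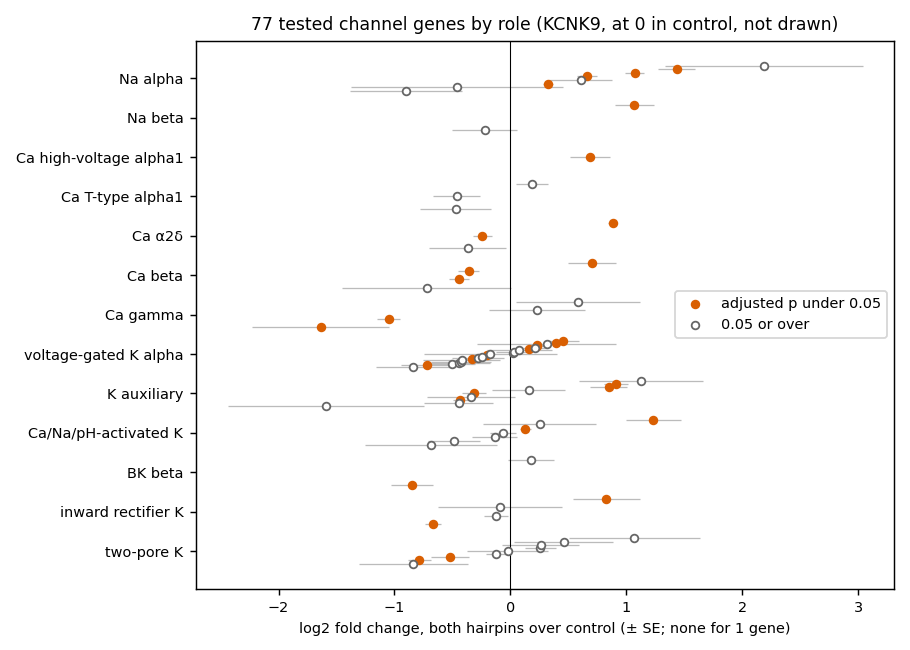
Log2 fold change of both hairpins over the control hairpin for 77 tested members, grouped by role, with standard errors as lines; filled points passed an adjusted p of 0.05 and open points did not. KCNK9, at 0 in the control hairpin libraries, is not drawn. The filled points of the sodium alpha subunits all lie right of 0, while those of the calcium beta subunits and the voltage-gated potassium alpha subunits lie on both sides.

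All sodium channel calls on the average of both hairpins were rises, 5 higher and 0 lower, but 4 were higher and 1 lower after the correction for gene length and GC content described further on. Among the 8 tested alpha subunits, which form the pore, SCN2A, SCN3A, SCN8A and SCN9A rose with both hairpins, and among the 2 tested beta subunits SCN3B rose. SCN2A, a channel of the axon initial segment of young neurons, had 4.28 and 4.71 CPM with hairpin 1, 4.53 and 3.83 CPM with hairpin 2, and 1.72 and 1.49 CPM with the control hairpin. All 4 knockdown libraries lay well above both control libraries, and the log2 change was 1.43 ± 0.16 (SE; adjusted p = 0.00012), or 0.88 after that correction (adjusted p = 0.0010). SCN3A, the sodium channel most used by embryonic neurons, had 16.6 and 16.2 CPM with hairpin 1, 16.1 and 16.3 CPM with hairpin 2, and 7.51 and 8.0 CPM with the control hairpin. Its log2 change was 1.07 ± 0.08 (adjusted p = 1.7e-05), or 0.67 corrected (adjusted p = 3.2e-05). The groups did not overlap, and the hairpins gave nearly the same level. SCN8A, the main sodium channel of mature axons, had 14.7 and 15.7 CPM with hairpin 1, 15.4 and 16.7 CPM with hairpin 2, and 10.1 and 9.65 CPM with the control hairpin and rose by 0.66 ± 0.09 on the log2 scale (adjusted p = 0.00028), or by 0.31 corrected (adjusted p = 0.0092).

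SCN9A was by far the most abundant sodium channel transcript, and its rise was small. It had 372 and 349.9 CPM with hairpin 1, 345 and 349.9 CPM with hairpin 2, and 271 and 293 CPM with the control hairpin, without overlap between knockdown and control, and a log2 change of 0.33 ± 0.04 (adjusted p = 0.00034). This direction depended on the handling of gene length and GC content: with a correction for both, the log2 change of SCN9A was -0.14 (adjusted p = 0.0057). SCN3B, a beta subunit that tunes gating and surface traffic, had 5.21 and 4.13 CPM with hairpin 1, 3.44 and 3.83 CPM with hairpin 2, and 2.12 and 1.81 CPM with the control hairpin. Its log2 change was 1.07 ± 0.17 (adjusted p = 0.00078), and the knockdown libraries were all above the control ones. SCN4B, another beta subunit, went apart between the hairpins, at 0.464 and 0.247 CPM with hairpin 1, 1.56 and 1.41 CPM with hairpin 2, and 0.873 and 0.838 CPM with the control hairpin. Its log2 change over control was -1.24 ± 0.35 with hairpin 1 (adjusted p = 0.019) and 0.80 ± 0.31 with hairpin 2 (adjusted p = 0.059). The call with hairpin 1 was lost without its second library (adjusted p = 0.10) or either control library (0.063 and 0.0503), and the change with hairpin 2 passed without either hairpin 1 library (0.044 and 0.039).

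The other sodium genes described were low and did not pass on the average of both hairpins. SCN7A, the atypical sodium-sensing member, had 1.6 and 1.88 CPM with hairpin 1, 2.2 and 1.85 CPM with hairpin 2, and 0.846 and 1.62 CPM with the control hairpin. Its log2 change was 0.61 ± 0.27 (adjusted p = 0.10; 0.014 without the second control library, which overlapped the knockdown range). SCN1A, a channel of inhibitory neurons, had a log2 change of 2.19 ± 0.85 on at most 0.586 CPM (adjusted p = 0.062; 0.015 without the second control library). It was called higher with hairpin 1 (log2 change 2.66 ± 0.90, adjusted p = 0.038), a call lost without any single library but the second control one (0.053 to 0.19), and did not pass with hairpin 2 (adjusted p = 0.18). SCN11A, a sensory neuron channel, had a log2 change of -0.46 ± 0.92 (adjusted p = 0.71), and it was lower with an adjusted p of 0.030 without the second hairpin 2 library. SCN2B, SCN4A and SCN10A were among the genes with too few counts to test. Several of the genes that rose are neighbours: SCN3A lies at chr2:165087522-165204067, minus strand; SCN2A at chr2:165194993-165392310, plus strand; and SCN9A at chr2:166195185-166376001, minus strand, all on hg38, in the same cluster as SCN1A and SCN7A. SCN2A and SCN3A run in opposite directions, and another gene, AC019197.1, overlaps 1.0% of SCN2A exon bases and 9.9% of SCN3A exon bases, and AC010127.1 overlaps 8.2% of those of SCN9A. Whether counting used strand is not given in the sources used here, so reads from these overlaps cannot be assigned.

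**Figure D3:**
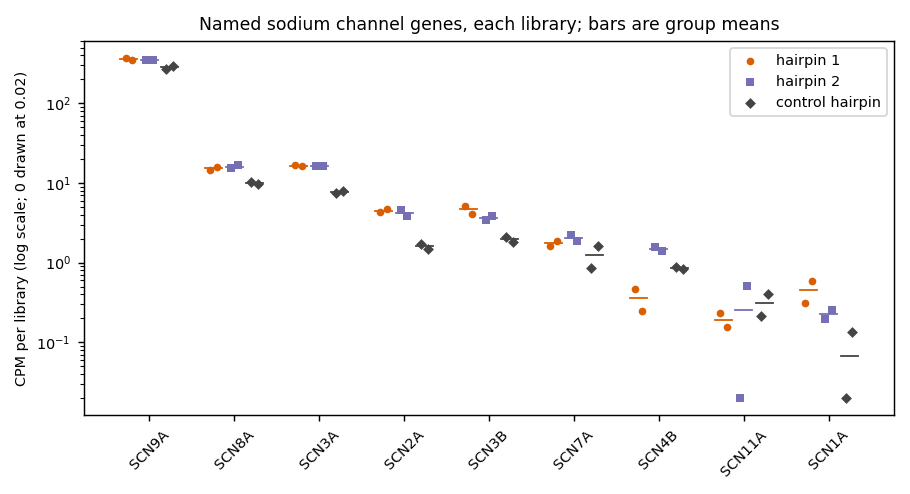
CPM in each library, on a log axis, of 9 of the 10 tested sodium channel genes, with short bars for the mean of each group of 2 libraries; from left to right within a gene stand hairpin 1, hairpin 2 and the control hairpin. SCN2A, SCN3A, SCN8A, SCN9A and SCN3B lie above control in all 4 knockdown libraries, and SCN4B is low with hairpin 1 and high with hairpin 2.

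Among the calcium channel genes, the α2δ subunit CACNA2D1 and the pore subunit CACNA1B rose and most called auxiliary subunits fell. CACNA2D1 (chr7:81946444-82443798, minus strand) had 208 and 201 CPM with hairpin 1, 147 and 141 CPM with hairpin 2, and 91.6 and 94.9 CPM with the control hairpin. The 3 groups were fully separate, with hairpin 1 highest, and the log2 change was 0.88 ± 0.04 for both hairpins (adjusted p = 2.2e-06), 1.13 ± 0.05 for hairpin 1 and 0.63 ± 0.04 for hairpin 2. CACNA1B, the N-type channel that triggers transmitter release, had 3.07 and 3.76 CPM with hairpin 1, 2.55 and 3.11 CPM with hairpin 2, and 2.01 and 1.84 CPM with the control hairpin. The log2 change was 0.69 ± 0.17 (adjusted p = 0.010; 0.065 without the second control library). With hairpin 1 alone it was 0.82 (adjusted p = 0.0080) and with hairpin 2 alone 0.56 (adjusted p = 0.045). The call with hairpin 2 was lost under 6 of 14 alternatives, a demand for a fold above 1.5 not counted. CACNA1B was the only one of the 7 high-voltage-activated pore genes with enough counts to test. For the 3 T-type pore genes, CACNA1G, CACNA1H and CACNA1I, log2 changes with both hairpins were -0.46 ± 0.20, 0.19 ± 0.14 and -0.47 ± 0.30 (adjusted p = 0.090, 0.29 and 0.23).

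The beta subunits, which bring the pore to the membrane, split on the average of both hairpins. With hairpin 2 alone against control, 0 of the 4 tested beta subunits and 0 of the 4 tested gamma subunits were called. CACNB1 had 7.89 and 8.01 CPM with hairpin 1, 10.4 and 9.64 CPM with hairpin 2, and 12.4 and 11.9 CPM with the control hairpin, below control in all 4 knockdown libraries, and a log2 change of -0.44 ± 0.09 (adjusted p = 0.0028). CACNB3 had 12 and 11.2 CPM with hairpin 1, 12.1 and 14 CPM with hairpin 2, and 15.7 and 16 CPM with the control hairpin. The log2 change was -0.36 ± 0.09 (adjusted p = 0.0092). CACNB2 went the other way, with 4.23 and 4.31 CPM with hairpin 1, 2.06 and 2.54 CPM with hairpin 2, and 2.33 and 1.51 CPM with the control hairpin; its log2 change was 0.70 ± 0.21 (adjusted p = 0.020), and its hairpin 2 libraries overlapped those of control. That call was lost without the second hairpin 2 library (adjusted p = 0.053) or the second control library (0.15). CACNA2D3, another α2δ subunit, had 17.1 and 15.4 CPM with hairpin 1, 15.5 and 15.9 CPM with hairpin 2, and 19.8 and 18 CPM with the control hairpin. The log2 change was -0.24 ± 0.08 (adjusted p = 0.035). This call was lost without the second hairpin 1 library (adjusted p = 0.088), either hairpin 2 library (0.092 and 0.067) or the first control library (0.24).

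CACNG4 had the widest difference between the hairpins of the tested calcium genes. This gamma subunit, better known for escorting AMPA receptors, had 2.01 and 1.88 CPM with hairpin 1, 8.94 and 9.28 CPM with hairpin 2, and 8.73 and 8.73 CPM with the control hairpin. Hairpin 1 was far below both other groups, and hairpin 2 lay close above control (adjusted p = 0.68), so its call with both hairpins (log2 change -1.05 ± 0.10, adjusted p = 4.6e-05) rested on hairpin 1. CACNG7, a related gamma subunit, was called lower with both hairpins on at most 0.621 CPM (log2 change -1.64 ± 0.59, adjusted p = 0.047), and the call was lost without any single library but the first of hairpin 1 (adjusted p = 0.066 to 0.19).

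The voltage-gated potassium alpha subunits made the largest group, with 21 of its 40 genes tested. On the average of both hairpins 5 were called higher and 3 lower. Of the 21, 0 lay above both control libraries in all 4 knockdown libraries and 2 lay below, counts for which no share over all genes was taken. With a correction for gene length and GC content, described further on, 1 was called higher and 4 lower. The share of all genes called under that correction was not taken. KCNH2 (chr7:150944961-150978315, minus strand) had 452 and 467 CPM with hairpin 1, 343 and 345 CPM with hairpin 2, and 365 and 344 CPM with the control hairpin; only hairpin 1 was above both control libraries, and the log2 change for both was 0.16 ± 0.04 (adjusted p = 0.0065; 0.061 without the second control library). Corrected for length and GC content, the change with hairpin 2 was 0.18 (adjusted p = 0.0020), against -0.04 as counted (adjusted p = 0.43). KCNG1 (chr20:51003656-51023129, minus strand) had 383 and 402 CPM with hairpin 1, 219 and 227 CPM with hairpin 2, and 359.6 and 322 CPM with the control hairpin. Hairpin 1 was above and hairpin 2 below both control libraries, and the pooled log2 change of -0.20 ± 0.05 (adjusted p = 0.0082; 0.072 without the first control library) is a mean over opposite differences.

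KCNC4, a subunit of fast-inactivating currents, rose with hairpin 1 alone, at 81.1 and 89.2 CPM with hairpin 1, 51.2 and 52.6 CPM with hairpin 2, and 52.7 and 48.6 CPM with the control hairpin. Its log2 change was 0.75 ± 0.06 with hairpin 1 (adjusted p = 2.5e-05) and 0.04 ± 0.06 with hairpin 2 (adjusted p = 0.67); with that correction the change with hairpin 2 was -0.39 (adjusted p = 0.00029). KCNH8, a relative of KCNH2, had 41.8 and 39.8 CPM with hairpin 1, 31.6 and 35.4 CPM with hairpin 2, and 30.1 and 33 CPM with the control hairpin. The log2 change was 0.23 ± 0.07 (adjusted p = 0.023; lost without the first hairpin 1 library, the second hairpin 2 library or the first control library, at 0.060, 0.066 and 0.18).

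KCNQ5, of the channels that carry the M-current that damps firing, had 35.3 and 36 CPM with hairpin 1, 50.1 and 48.2 CPM with hairpin 2, and 35 and 36.3 CPM with the control hairpin; hairpin 2 alone was above control, and the log2 change for both hairpins was 0.23 ± 0.05 (adjusted p = 0.0049). Corrected for length and GC content, KCNQ5 had 0.03 for both hairpins (adjusted p = 0.64) and -0.16 for hairpin 1 (adjusted p = 0.033). KCND1, an A-type channel, fell with hairpin 2 alone, at 13.8 and 13.6 CPM with hairpin 1, 8.84 and 8.76 CPM with hairpin 2, and 14.3 and 13.3 CPM with the control hairpin (log2 change -0.65 ± 0.09, adjusted p = 0.00055). KCNH1, the ether-à-go-go channel, did not pass, at 15.6 and 14.1 CPM with hairpin 1, 15.9 and 15.9 CPM with hairpin 2, and 11.9 and 14.7 CPM with the control hairpin (log2 change 0.21 ± 0.10, adjusted p = 0.12; 0.030 without the second control library).

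Of 9 tested auxiliary potassium subunits, 2 were called higher and 2 lower on the average of both hairpins. KCNAB1, a beta subunit that speeds inactivation, had 15.5 and 17.2 CPM with hairpin 1, 5.38 and 6.04 CPM with hairpin 2, and 5.18 and 5.05 CPM with the control hairpin. Its rise was with hairpin 1, a log2 change of 1.67 ± 0.12 (adjusted p = 9.1e-06), against 0.16 ± 0.12 with hairpin 2 (adjusted p = 0.31). KCNIP4, a calcium-binding partner of KCND channels, had 4.1 and 3.57 CPM with hairpin 1, 2.68 and 2.34 CPM with hairpin 2, and 1.69 and 1.76 CPM with the control hairpin, separate from control in all knockdown libraries, and a log2 change of 0.85 ± 0.16 (adjusted p = 0.0024). With hairpin 1 alone it was 1.15 (adjusted p = 0.00083) and with hairpin 2 alone 0.54 (adjusted p = 0.037). The call with hairpin 2 was lost under 9 of 14 alternatives, a demand for a fold above 1.5 not counted. Corrected for gene length and GC content, the change with hairpin 2 was 0.26 (adjusted p = 0.28). KCNAB2 and KCNAB3, the other beta subunits, were lower: KCNAB2 had 25.1 and 25.4 CPM with hairpin 1, 17.7 and 19.2 CPM with hairpin 2, and 29.1 and 29.1 CPM with the control hairpin. Its log2 change was -0.43 ± 0.06 (adjusted p = 0.00059). With hairpin 2 alone it was -0.66 (adjusted p = 0.00015) and with hairpin 1 alone -0.21 (adjusted p = 0.049). The KCNAB2 call with hairpin 1 was lost under 12 of 14 such alternatives. KCNAB3 had 6.52 and 6.16 CPM with hairpin 1, 5.6 and 6.09 CPM with hairpin 2, and 7.35 and 7.81 CPM with the control hairpin. Its log2 change was -0.32 ± 0.10 (adjusted p = 0.031). This last call was lost without the second hairpin 1 library (adjusted p = 0.078), the first hairpin 2 library (0.084) or either control library (0.070 and 0.16).

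Of the potassium channels opened by calcium or sodium, KCNT2 rose with each hairpin. This sodium-activated channel had 1.32 and 1.76 CPM with hairpin 1, 1.78 and 1.59 CPM with hairpin 2, and 0.661 and 0.703 CPM with the control hairpin; the groups were apart by a wide margin, with a log2 change of 1.23 ± 0.24 (adjusted p = 0.0025). KCNMA1, the pore of the large-conductance BK channel, had 42.1 and 41.5 CPM with hairpin 1, 49.1 and 48.7 CPM with hairpin 2, and 41.2 and 41.5 CPM with the control hairpin. Hairpin 2 stood apart from the other groups, while hairpin 1 was within 1 CPM of control, and the pooled log2 change of 0.13 ± 0.05 (adjusted p = 0.043) was lost whichever of the 6 libraries was left out, at adjusted p = 0.062 to 0.17. With the length and GC correction it was -0.33 (adjusted p = 0.0013). KCNMB4, the neuronal BK beta subunit, fell with each hairpin, at 1.68 and 2.25 CPM with hairpin 1, 1.54 and 1.57 CPM with hairpin 2, and 3.44 and 2.84 CPM with the control hairpin (log2 change -0.85 ± 0.18, adjusted p = 0.0045); with hairpin 1 the call was lost without its first library (adjusted p = 0.16) or the first control library (0.15).

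Of the 4 tested inward rectifiers, KCNJ14 was called higher and KCNJ12 lower on the average of both hairpins, and for KCNJ12 the hairpins went opposite ways. KCNJ14 had 1.96 and 1.39 CPM with hairpin 1, 0.941 and 1.57 CPM with hairpin 2, and 0.846 and 0.784 CPM with the control hairpin, and its call (log2 change 0.83 ± 0.29, adjusted p = 0.042) was lost without the first hairpin 1 library, the second hairpin 2 library or either control library, at adjusted p = 0.11 to 0.15; other genes overlap 25.0% of its exon bases, so its counts are uncertain. KCNJ12, a strong inward rectifier, had 7.66 and 7.06 CPM with hairpin 1, 32 and 31.8 CPM with hairpin 2, and 25.4 and 23.3 CPM with the control hairpin. Hairpin 1 lay far below control at a log2 change of -1.72 ± 0.09 (adjusted p = 2.2e-06), and hairpin 2 above it at 0.39 ± 0.08 (adjusted p = 0.0043). KCNJ18 is a near-identical copy of KCNJ12, so reads could be split between them and both are uncertain. KCNJ8, the pore of an ATP-sensitive channel, had 13.3 and 15.8 CPM with hairpin 1, 6.39 and 5.91 CPM with hairpin 2, and 10.1 and 10.5 CPM with the control hairpin, above control with hairpin 1 and below it with hairpin 2, and the pooled change did not pass (log2 change -0.12 ± 0.10, adjusted p = 0.35).

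The tandem pore domain channels, which carry leak currents, were called higher for 1 gene and lower for 2 of 10 tested on the average of both hairpins. KCNK13, a halothane-inhibited leak channel, had 5.24 and 5.08 CPM with hairpin 1, 9.64 and 8.97 CPM with hairpin 2, and 11 and 12.9 CPM with the control hairpin. It fell by more with hairpin 1 than with hairpin 2, at log2 changes of -1.21 ± 0.12 and -0.36 ± 0.12 (adjusted p = 6.4e-05 and 0.030). The call with hairpin 2 was lost without either of its libraries (adjusted p = 0.075 and 0.16) or the second control library (0.19). KCNK5, opened by alkaline pH, had 3.77 and 2.59 CPM with hairpin 1, 3.37 and 3.03 CPM with hairpin 2, and 4.52 and 4.65 CPM with the control hairpin. The log2 change was -0.52 ± 0.17 (adjusted p = 0.029). This call was lost without the second library of hairpin 1, the second of hairpin 2 or either control library, at adjusted p = 0.054 to 0.11. KCNK9, an acid-sensitive leak channel, had no count in either control library, against 15 and 17 counts with hairpin 1 and 19 and 19 with hairpin 2. Its level was at least 5.83-fold higher with both hairpins, taking 3 counts per library as the floor for control. KCNK9 was chosen after its values were seen and entered the test through the knockdown groups alone. KCNK1, a widely expressed member, did not pass, at 10.4 and 10.9 CPM with hairpin 1, 12.7 and 11.3 CPM with hairpin 2, and 12.1 and 12.4 CPM with the control hairpin (log2 change -0.12 ± 0.09, adjusted p = 0.29).

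The hairpins taken singly gave different balances of calls. With hairpin 1, 25 members rose and 10 fell, 44.9% of the 78 tested, and 49.1% of all genes tested were called, 24.2% higher and 24.9% lower. With hairpin 2, 14 rose and 14 fell, 35.9% of the members, against 49.3% of all genes, 23.9% higher and 25.4% lower. The median log2 change over the members was 0.13 with hairpin 1 and -0.18 with hairpin 2, both set against the same control libraries. Without the first control library, the count of falls was 6 with hairpin 1 and 9 with hairpin 2.

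Hairpin 2 against hairpin 1 tests that difference directly. Of the 78 members, 10 were higher and 25 lower with hairpin 2, 44.9% in all, and 46.2% of all genes tested were called in that comparison, with 22.9% higher and 23.3% lower. Most of the lower calls were of potassium genes, with 6 higher and 21 lower of 53 tested, and in its voltage-gated alpha subunits 1 was higher and 13 were lower of 21, with a median log2 difference of -0.71. Sodium genes gave 1 higher and 0 lower of 10 (also in DESeq2, and also at an unadjusted p under 0.05 in edgeR), and calcium genes 3 higher and 4 lower of 15. Marker genes moved with this comparison too: of the 8 adrenergic markers, 1 was higher and 4 were lower with hairpin 2, DBH among them at 15.1 CPM with hairpin 2 and 76.3 CPM with hairpin 1, 3 of the 5 fibroblast markers and 1 of the epithelial ones were higher, and CD68 was lower. Their part in the channel differences was not tested.

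KCNH6, a close relative of KCNH2, had the largest drop in hairpin 2 against hairpin 1 among members above 1 CPM on average. It had 0.495 and 0.642 CPM with hairpin 2, 2.66 and 2.77 CPM with hairpin 1, and 1.77 and 1.24 CPM with the control hairpin. Hairpin 2 lay below control and hairpin 1 above it, and the log2 difference of hairpin 2 minus hairpin 1 was -2.25 ± 0.27 (adjusted p = 0.00021). KCNH4 had the same order, with 2.73 and 2.34 CPM with hairpin 2, 6.27 and 6.16 CPM with hairpin 1, and 3.33 and 4.43 CPM with the control hairpin, and a log2 difference of -1.29 ± 0.18 (adjusted p = 0.00046). KCNC1, a subunit of the fast delayed rectifiers of rapidly firing neurons, had 5.03 and 5.34 CPM with hairpin 2, 9.75 and 11 CPM with hairpin 1, and 8.81 and 8.62 CPM with the control hairpin. It was lower with hairpin 2 than in both other groups, with a log2 change over control of -0.75 ± 0.12 (adjusted p = 0.00084). KCNF1, a silent modifier subunit, had 1.24 and 0.874 CPM with hairpin 2, 1.73 and 1.88 CPM with hairpin 1, and 2.06 and 1.86 CPM with the control hairpin and a log2 change over control of -0.89 ± 0.24 with hairpin 2 (adjusted p = 0.015; lost without the second hairpin 2 library at 0.090 or the first control library at 0.068).

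Of the 10 tested tandem pore domain genes, 1 was higher and 2 were lower with hairpin 2 than with hairpin 1, at a median log2 difference of -0.02. KCNK3, an acid-sensitive leak channel, had 7.8 and 5.6 CPM with hairpin 2, 16.2 and 15.5 CPM with hairpin 1, and 9.07 and 8.21 CPM with the control hairpin, and a log2 difference of hairpin 2 minus hairpin 1 of -1.24 ± 0.15 (adjusted p = 0.00025); against control it passed with hairpin 1 but not with hairpin 2 (adjusted p = 0.0015 and 0.084). For KCNJ8 this difference was -1.24 ± 0.12 (adjusted p = 5.8e-05), and for KCNAB1 it was -1.52 ± 0.12 (adjusted p = 1.6e-05). Fewer members were higher with hairpin 2: CACNG4 by 2.22 ± 0.13 and KCNJ12 by 2.11 ± 0.09 on the log2 scale (adjusted p = 3.0e-06 and 7.2e-07), and KCNK13 by 0.85 ± 0.12 (adjusted p = 0.00056). KCNMB3, a BK beta subunit, had 2.63 and 2.18 CPM with hairpin 2, 1.68 and 1.29 CPM with hairpin 1, and 1.53 and 1.81 CPM with the control hairpin, but 47.5% of its exon bases are shared with other genes, PIK3CA among them, and its counts are uncertain. By contrast, SCN2A and SCN3A had log2 differences between the hairpins of -0.10 ± 0.16 and -0.02 ± 0.09 (adjusted p = 0.64 and 0.89).

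REST, the repressor that silences many neuronal genes, channel genes among them, through a DNA element called RE1, also differed between the hairpins. It had 38.1 and 35.4 CPM with hairpin 2, 9.18 and 9.15 CPM with hairpin 1, and 17 and 20.5 CPM with the control hairpin. Hairpin 2 was above and hairpin 1 below both control libraries, with a log2 difference of 2.00 ± 0.11 between them (adjusted p = 2.3e-06); REST was chosen after its values were seen. The part of REST in the channel differences was not tested.

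**Figure D4:**
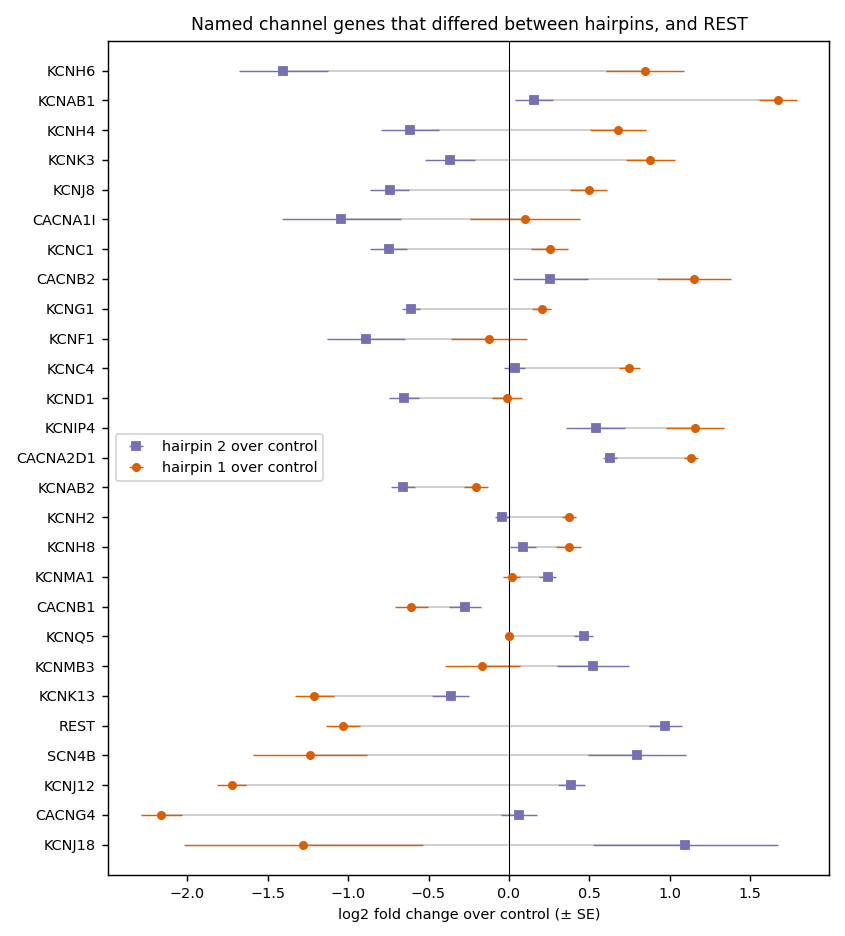
Log2 fold change over the control hairpin, with standard errors, of 26 of the 35 members that differed between the hairpins and of REST; squares are hairpin 2 and circles hairpin 1, and genes are ordered by the difference, with those lowest in hairpin 2 at the top. KCNH6, KCNH4, KCNK3 and KCNJ8 have hairpin 2 left and hairpin 1 right of 0, and REST has the reverse.

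Promoter sequences, taken from RefSeq on GRCh38.p14, were available for 98 of the 136 members as 300 bases each, 250 before the start site and 50 from it. They were searched on both strands for the left and right parts of the RE1 element, TTCAGCACC and GGACAGC, and for the MYC and MYCN E-box CACGTG; none of the 3 stands within another, and they were chosen after the expression values were seen. The left RE1 part stood in 3 of the 98 (3.06%), those of CACNG3, KCNH6 and KCNK3, against 0.403% of all 27305 promoters. The right part stood in 11 of 98 (11.2%), against 6.11% of all, and the left part followed by 2 free bases and the right part in 0 of 98, against 0.00732% of all. CACGTG stood in 5 of 98 (5.1%), against 7.43% of all. KCNH6 and KCNK3 were the 2 members with both RE1 parts, and neither had them in the spaced form searched for. Their promoters are printed because they hold both parts. Those of KCNH4 and CACNA1B are printed as examples with an E-box. The promoter of CACNA1I, also described above, holds an E-box too and is not printed. Capitals mark the matches, and the opposite strand of TTCAGCACC reads GGTGCTGAA.
KCNH6, chr17:63523108-63523407, plus strand: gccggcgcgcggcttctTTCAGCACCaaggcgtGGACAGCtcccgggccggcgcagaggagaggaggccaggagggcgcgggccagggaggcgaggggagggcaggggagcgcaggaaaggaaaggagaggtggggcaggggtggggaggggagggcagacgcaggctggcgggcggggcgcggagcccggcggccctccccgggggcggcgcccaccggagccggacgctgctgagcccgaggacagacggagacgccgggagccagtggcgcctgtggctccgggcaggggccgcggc
KCNK3, chr2:26692472-26692771, plus strand: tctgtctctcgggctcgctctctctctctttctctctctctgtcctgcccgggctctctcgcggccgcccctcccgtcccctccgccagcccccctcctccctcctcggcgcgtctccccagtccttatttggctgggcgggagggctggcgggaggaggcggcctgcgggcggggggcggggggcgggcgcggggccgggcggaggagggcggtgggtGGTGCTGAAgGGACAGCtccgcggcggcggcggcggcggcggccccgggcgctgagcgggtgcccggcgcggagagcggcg
KCNH4, chr17:42181093-42181392, minus strand: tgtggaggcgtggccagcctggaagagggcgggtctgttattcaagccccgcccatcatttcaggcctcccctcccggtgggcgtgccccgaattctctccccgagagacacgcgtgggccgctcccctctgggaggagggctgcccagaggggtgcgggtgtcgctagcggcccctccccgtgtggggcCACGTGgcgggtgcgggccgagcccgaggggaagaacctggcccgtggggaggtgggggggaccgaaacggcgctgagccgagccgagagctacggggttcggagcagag
CACNA1B, chr9:137877532-137877831, plus strand: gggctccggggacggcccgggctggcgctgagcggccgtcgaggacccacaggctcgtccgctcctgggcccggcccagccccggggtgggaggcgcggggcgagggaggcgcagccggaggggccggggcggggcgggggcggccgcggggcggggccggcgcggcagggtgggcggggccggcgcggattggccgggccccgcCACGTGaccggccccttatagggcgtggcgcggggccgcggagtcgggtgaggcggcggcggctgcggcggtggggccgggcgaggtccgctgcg

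In KCNH6 the left part starts 233 bases and the right part 217 bases before the start site, on the same strand as the gene. In KCNK3 the left part is on the opposite strand 31 bases before the start site and the right part on the same strand 21 bases before it. The E-box starts 60 bases before the start site of KCNH4 and 45 bases before that of CACNA1B. These are matches of letters, with no binding measured.

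Genes whose products bind or control these channels, or are related channels outside the families, were looked at as a list of 36, of which 29 were tested. On the average of both hairpins 8 were called higher and 6 lower, near the shares over all genes tested of 23.6% and 26.4%. Their median log2 change was 0.01. The scaffold gene ANK2 rose, at 155 and 159 CPM with hairpin 1, 130.3 and 126 CPM with hairpin 2, and 66.2 and 66.5 CPM with the control hairpin (log2 change 1.09 ± 0.04, adjusted p = 1.2e-06). UNC80 and UNC79, partners of the sodium leak channel NALCN, rose chiefly with hairpin 1: UNC80 had 10.4 and 11.5 CPM with hairpin 1, 4.43 and 3.29 CPM with hairpin 2, and 2.46 and 3.27 CPM with the control hairpin, and UNC79 had 6.45 and 5.73 CPM with hairpin 1, 2.13 and 2.34 CPM with hairpin 2, and 1.85 and 1.46 CPM with the control hairpin. Their log2 changes with both hairpins were 1.18 ± 0.17 and 1.15 ± 0.17 (adjusted p = 0.00056 and 0.00049). NALCN itself had 47 counts in the knockdown libraries and 2 in the control ones, a ratio of 11.7 with a 95% counting interval of 3.06 to 99.3, which covers counting error only. It was chosen after its values were seen and is among the 8 called higher. NALCN passed the filter level in both libraries of 1 group only, so a difference was in part required for its entry.

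Falls among these partners were led by LRRC55, a gamma subunit of the BK channel. It had 8.36 and 8.78 CPM with hairpin 1, 7.43 and 7.14 CPM with hairpin 2, and 31.9 and 36.3 CPM with the control hairpin, far below control in every knockdown library, and its log2 change was -2.11 ± 0.08 (adjusted p = 1.3e-06). GEM, a small GTPase that inhibits calcium channels, had 175 and 168 CPM with hairpin 1, 85.9 and 86.1 CPM with hairpin 2, and 218 and 216 CPM with the control hairpin, with hairpin 2 lowest, and a log2 change of -0.84 ± 0.03 (adjusted p = 1.5e-06). STAC2, an adaptor of calcium channels, had 12 and 11.2 CPM with hairpin 1, 14.5 and 14.4 CPM with hairpin 2, and 20.7 and 20.6 CPM with the control hairpin. The log2 change was -0.67 ± 0.07 (adjusted p = 9.5e-05).

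The members that rose and fell also differed in make-up. The 19 that rose had a median exon length of 9010 bases and a median GC content of 44.4%, against 5155.5 bases and 58.1% for the 14 that fell and 6299.5 bases and 54.8% for all 78 tested. After a correction for GC content and length, fitted over 13907 protein-coding genes, 23 of the 33 calls with both hairpins kept their direction, 12 higher and 11 lower. SCN9A and KCNMA1 were called in the opposite direction, and 8 calls were lost, among them those of CACNB2, CACNG7, KCNAB3, KCNK5, KCNC4, KCNH8 and KCNQ5. KCNK3 (log2 change 0.37) and KCNC1 (-0.39) were gained. SCN2A, SCN3A, SCN8A and SCN3B stayed higher, at corrected log2 changes of 0.88, 0.67, 0.31 and 0.90, so that the corrected sodium count was 4 higher and 1 lower. The hairpin difference was less sensitive to this correction: 33 of its 35 calls kept their direction.

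**Figure D5:**
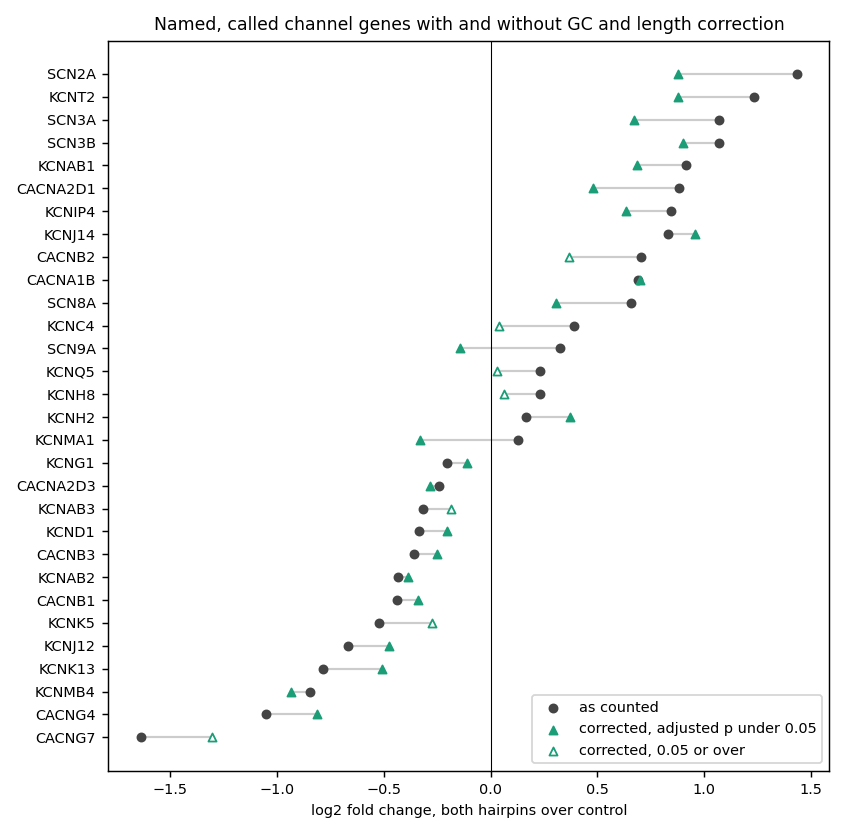
Log2 fold change of both hairpins over the control hairpin for 30 of the 33 called members, as counted (dark circles) and after correction for GC content and exon length (triangles, open where the adjusted p was 0.05 or over). Most long, GC-poor genes that rose move left, SCN9A and KCNMA1 across 0, and CACNA1B hardly moves.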

How the data were processed

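Counts per gene of 6 libraries were deposited by the authors as 1 table of whole numbers, not normalized. Per the labels' protocols, RNA was extracted with TRIzol and sequenced as TruSeq libraries. Per the submitters' processing notes, HISAT2 2.2.0, StringTie and hg38 were used; no source used here gives the annotation or the strand setting. Gene IDs were named, placed and measured with GENCODE v29. Genes were kept by edgeR's filterByExpr (minimum count 10), scaled by TMM and fitted with 1 term per group over all 6 libraries (edgeR 4.0.16 in R 4.3.3). Its quasi-likelihood test was adjusted by Benjamini-Hochberg over 18734 genes, and the test was tried on simulated data. Total counts of 32333416 to 39321388 limit precision for genes near 1 CPM. The length and GC correction fitted a loess curve per library, as offsets. DESeq2 1.42.0, other filters and scalings, a fold threshold and leaving out libraries were alternatives.

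The members and lists were chosen with earlier results of these data known. Named members had an adjusted p under 0.05, a mean of at least 1 CPM and groups without overlap, and were the largest changes of each comparison: up to 12 rises and 12 falls for both hairpins, 5 of each for the other comparisons, and 3 of each for partners. The members with the highest level per length, 5 potassium, 5 calcium and 3 sodium, were named whatever their test. Outside that rule, and chosen after their values were seen, were SCN4B, SCN7A, SCN1A, SCN11A, CACNB2, CACNG7, the T-type genes, KCNC4, KCND1, KCNH1, KCNK1, KCNK9, KCNJ18, NALCN and REST. Some members are not reported here by name, though the counts include them.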

Additional observations from a re-analysis of the deposited data

Results flagged for a closer look

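Each gene below was looked at again because its change over the control hairpin differed between the hairpins, by edgeR's direct test of hairpin 2 against hairpin 1 at an adjusted p under 0.05. All values are log2 differences of hairpin 2 minus hairpin 1. Of the voltage-gated potassium alpha subunit genes, with the silent KCNG1 and KCNF1 counted among them, KCNH6 differed by -2.25, KCNH4 by -1.29, KCNC1 by -1.0, KCNG1 by -0.81, KCNF1 by -0.77, KCNC4 by -0.71, KCND1 by -0.64, KCNH2 by -0.42 and KCNH8 by -0.28. All of these were lower with hairpin 2, while KCNQ5 was higher with it by 0.46. Of their auxiliary subunits, KCNAB1 differed by -1.52, KCNIP4 by -0.61 and KCNAB2 by -0.45.

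Among the other potassium genes, KCNK3 and KCNJ8 each differed by -1.24, while KCNK13 was higher with hairpin 2 by 0.85, KCNMA1 by 0.23, KCNMB3 by 0.69, KCNJ12 by 2.11 and its near-identical copy KCNJ18 by 2.37. Of the calcium genes, CACNG4 was higher with hairpin 2 by 2.22 and CACNB1 by 0.34, and CACNA1I, CACNB2 and CACNA2D1 differed by -1.14, -0.89 and -0.50. SCN4B was the sodium gene that differed, at 2.03. Of the partner genes, UNC80, UNC79, GEM and ANK2 differed by -1.5, -1.45, -1.0 and -0.29, STAC2 by 0.32 and REST by 2.00.

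Some of these calls did not survive the loss of a library. CACNA1I was lost whichever of the 6 libraries was left out (adjusted p = 0.053 to 0.13), and CACNB1 without any of the 4 knockdown libraries (0.0501 to 0.16). KCNIP4 was lost without the second hairpin 2 library (0.11) or the first hairpin 1 library (0.12), KCNH8 without the first library of hairpin 2 (0.11) or of hairpin 1 (0.091), and CACNB2 without the first hairpin 2 library (0.077). KCNMB3, STAC2 and KCNJ18 were lost without either hairpin 2 library or the second hairpin 1 library, at adjusted p = 0.053 to 0.18 over the 3 genes. KCNF1 was lost without the second hairpin 2 library (0.17) or either hairpin 1 library (0.073 and 0.11).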

How the results depend on the processing

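The cause of the changes given here was not tested. The share of all genes called was counted only for the edgeR test as first given. Counts of calls under the alternatives, here and above, therefore have no background to be read against. Demanding a fold above 1.5 left 6 members higher and 1 lower with both hairpins, 8 and 3 with hairpin 1, 3 and 1 with hairpin 2, 3 and 8 for hairpin 2 against hairpin 1, and 5 and 2 of the partners; fewer genes can pass by construction. DESeq2 gave 9 members lower with both hairpins, 6 with hairpin 1 and 7 with hairpin 2, and 6 higher for hairpin 2 against hairpin 1. Over the fits that left out 1 library, members higher and lower numbered 15 to 18 and 7 to 16 with both hairpins, 20 to 23 and 6 to 11 with hairpin 1, 11 to 16 and 9 to 16 with hairpin 2, 7 to 11 and 17 to 23 for hairpin 2 against hairpin 1, and 6 to 9 and 4 to 6 of the partners. The lowest counts lower over control, 7, 6 and 9, came without the first control library. With a correction for GC content and length, log2 changes turned round for SCN9A (-0.14 with both hairpins, -0.039 with hairpin 1, -0.24 with hairpin 2), KCNMA1 (-0.33, -0.37 and -0.28 in that order), KCNQ5 with hairpin 1 (-0.16), KCNH2 with hairpin 2 (0.18) and KCNC4 with hairpin 2 (-0.39). Deviations from the group mean hardly correlated between libraries of equal replicate number (0.0044, -0.038 and -0.033). These correlations cannot show whether the samples were paired by culture or batch. With the replicate block, 17 members were higher and 15 lower with both hairpins, 24 and 11 with hairpin 1, and 12 and 12 with hairpin 2. It gave 10 and 21 for hairpin 2 against hairpin 1, and 8 and 5 of the partners. With 2 libraries a group the spread rests on 3 residual degrees of freedom, and for members under 1 CPM the counts limit what can be seen.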
